A study of Sus scrofa with 2 samples.

Results

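Genes that pattern the uterus or carry its WNT and hedgehog signals were followed in the endometrium of 2 pregnant Yorkshire pigs at day 18 (YK18), each sequenced as 1 RNA-seq library. The 10 genes are 5 transcription factors of receptivity (HOXA10, HOXA11, MSX1, MSX2 and HAND2) and 5 signaling genes (WNT4, WNT5A, WNT7A, IHH and PTCH1). The genes were chosen by name, and the transcripts of each were found by matching RefSeq accessions, with the version number ignored, to the symbols of the Sscrofa11.1 annotation. Of the 10 genes, 8 had at least 1 transcript in the deposited table, among 11071 genes that could be named in this way. MSX2 and HAND2 had no matched transcript and are not analysed here. Both pigs came from 1 commercial herd, had been artificially inseminated, and were slaughtered on the same day of gestation, so there was 1 group and no test between conditions. The tissue was whole endometrium, in which fewer cells of a type and less RNA per cell cannot be told apart.

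HOX genes encode homeodomain transcription factors. Those at the posterior end of the clusters set the identity of successive segments of the female reproductive tract, and HOXA10 and HOXA11 remain in use in the adult uterus. MSX1 and MSX2 are homeodomain factors known from uterine epithelium around implantation, and HAND2 is a basic helix-loop-helix factor of the stroma that responds to progesterone. IHH is a hedgehog ligand made by the uterine epithelium under progesterone, and PTCH1 is its receptor and also a target of the pathway. WNT proteins are secreted ligands that bind frizzled receptors. WNT7A is known as an epithelial ligand, WNT4 and WNT5A as ligands used by the stroma.

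Levels are in RPKM, the reads of a transcript per kilobase of its length and per 1000000 reads of the library, and the listed transcripts of a gene were summed. Low RPKM values rise in steps of 1 read, and these steps gave 7466979 reads behind replicate 1 and 7023108 behind replicate 2. For each transcript the smallest length that gave whole reads in both libraries was used. A transcript may be longer by a whole factor, with its reads larger by the same factor, so the reads given are the smallest that the values allow. These smallest reads made up 90.2% of the total in replicate 1 and 90.3% in replicate 2. If each read was counted once, this leaves little room for larger reads over the whole table. It does not settle the reads of any single transcript. The RPKM of all transcripts summed to 4279448 and 4272865. Many lengths were short, as given with the ranks below, and RPKM compared between genes rests on them. Replicate 1 stood apart by its skeletal muscle genes, of which 8 of 10 averaged 1 RPKM or more and all 8 were at least 2-fold higher there. Their summed level was 584.5 RPKM in replicate 1 against 33.9 in replicate 2, and TNNT3 was listed at 0 in both. It also stood apart by IFNG, which the pig conceptus secretes around attachment, at 681.6 RPKM against 89.1 in the other pig. Of the 7 trophectoderm markers, 6 were listed, with summed levels of 703.8 and 112.9 RPKM, most of it IFNG. TFAP2C was at 17.5 and 14.1 RPKM and CDX2 at 1.46 and 0.22 RPKM. IL1B went the other way, at 3.20 and 9.54 RPKM, and HAND1 and GATA3 were listed at 0 in both.

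HOXA11 and MSX1 were the most abundant members, WNT7A came next, and IHH and WNT5A were low. HOXA11 was at 78.2 RPKM in replicate 1 and at 61.2 in replicate 2, with a mean of 69.7 ± 12.004 RPKM (SD, n = 2). MSX1 was at 74.0 and 102.5 RPKM, a mean of 88.2 ± 20.2 RPKM (SD, n = 2). These 2 factors changed places between the pigs, and their means differed by less than the SD of MSX1. WNT7A was at 33.7 and 31.1 RPKM, a mean of 32.4 ± 1.84 RPKM (SD, n = 2), and was below both factors in both libraries. HOXA11 exceeded it 2.32-fold in replicate 1 and 1.97-fold in replicate 2, and MSX1 exceeded it 2.19-fold and 3.29-fold. IHH was at 4.16 and 13.9 RPKM, a mean of 9.01 ± 6.85 RPKM (SD, n = 2), below WNT7A in both pigs. WNT5A was at 4.96 and 7.03 RPKM, a mean of 5.996 ± 1.46 RPKM (SD, n = 2). WNT5A was above IHH in replicate 1 and below it in replicate 2, so the order of these neighbours was not settled.

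**Figure D1:**
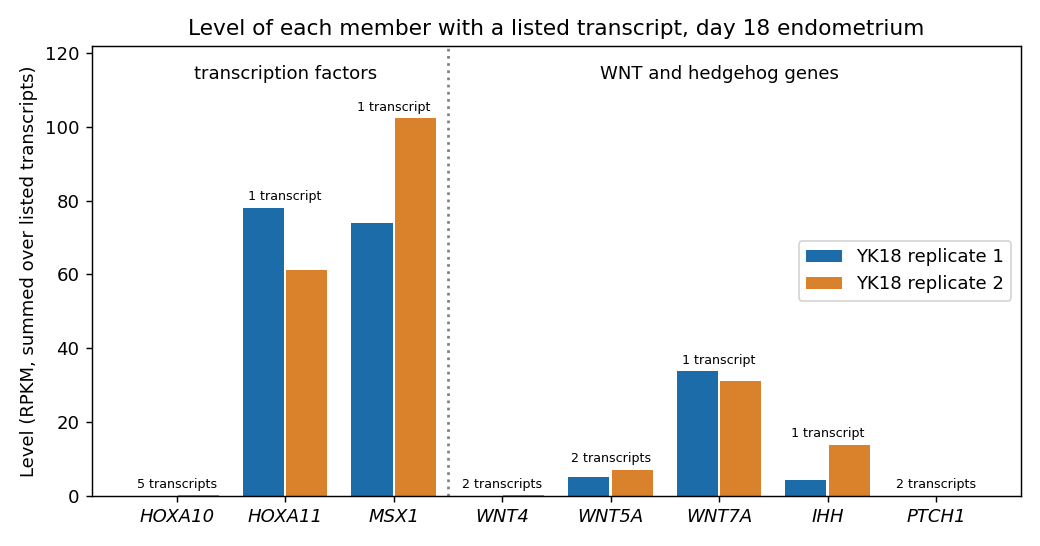
Level in RPKM (vertical axis, from 0) of the 8 members with a listed transcript, with 1 bar per library and the number of listed transcripts above each pair. HOXA11 and MSX1 reached 61.2 to 102.5 RPKM, WNT7A 31.1 to 33.7 RPKM, and HOXA10, WNT4 and PTCH1 were at or near 0.

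The other 3 listed members were at or near 0. HOXA10 has 5 listed transcripts, of which 4 were listed at 0 in both libraries. The other one, XM_005673291.1, was listed at 0 in replicate 1 and was at 0.112 RPKM in replicate 2, from at least 1 read. WNT4 has 2 listed transcripts. XM_005656037.1 was listed at 0 in replicate 1 and was at 0.209 RPKM in replicate 2, also from at least 1 read, and NM_001170828.1 was listed at 0 in both. Both listed transcripts of PTCH1 were listed at 0 in both libraries. Members above 0 in both libraries thus numbered 5 of the 8 listed, beside 63.1% of all named genes, which is close to the background.

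The members near 0 were all listed with more than 1 transcript. Listed transcripts are those matched to a symbol, which held for 42.0% of the mRNA accessions. Others of the same genes may be in the deposited table without a name. Sums, zeros and transcript numbers may therefore be incomplete. HOXA11, MSX1, WNT7A and IHH each have 1 listed transcript, and all 4 were above 0 in both libraries. HOXA10, WNT4, WNT5A and PTCH1 have 2 to 5 listed transcripts, and only WNT5A was above 0 in both, through XM_005669658.1 alone, while its other transcript XM_005669660.1 was listed at 0. The same division ran through the whole table. Of 8238 genes with 1 listed transcript, 21.1% (95% exact binomial confidence interval 20.2% to 22.0%) were listed at 0 in both libraries. Of 1710 genes with 2 listed transcripts it was 40.4% (38.01% to 42.7%), and of 244 genes with 5 or more it was 52.0% (45.6% to 58.5%). A low value of HOXA10, WNT4 or PTCH1 is therefore given only as listed, and how the counting treated reads shared by several transcripts of a gene is not given in the sources used here.

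**Figure D2:**
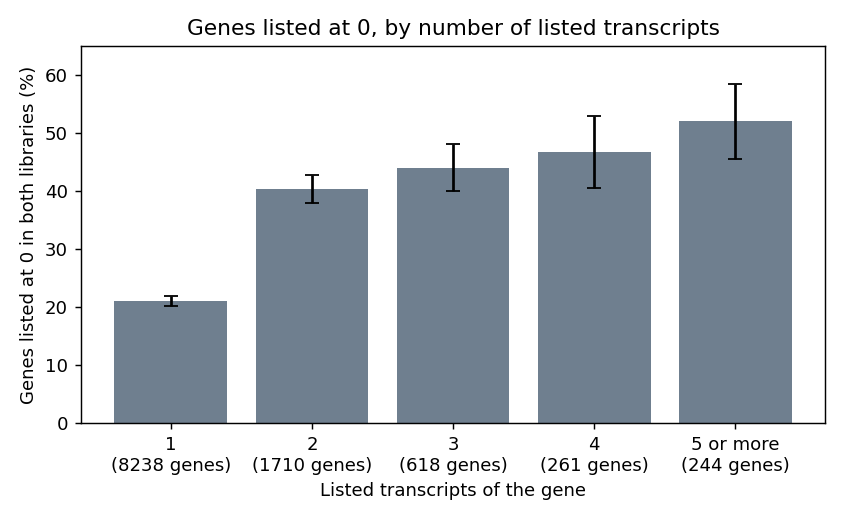
Share of named genes listed at 0 in both libraries (vertical axis, percent, from 0) by the number of listed transcripts of the gene, with 95% exact binomial confidence intervals. The share was 21.1% for genes with 1 listed transcript and 40.4% to 52.0% for genes with more.

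The transcription factors were set beside the WNT and hedgehog genes by level. With every listed member kept, the median of the 3 factors was 74.0 RPKM in replicate 1 and 61.2 in replicate 2. The median of the 5 WNT and hedgehog genes was 4.16 and 7.03 RPKM. On the scale log2(RPKM + 1), averaged over the libraries, the factors were higher by 3.34. Of the 15 pairs of 1 factor and 1 WNT or hedgehog gene, the factor was higher in 10 pairs in replicate 1 and 11 pairs in replicate 2. The pairs in which the factor was not higher all involved HOXA10. Among the 4 members with 1 listed transcript, the difference was 2.20 on the same scale, with HOXA11 and MSX1 on one side and WNT7A and IHH on the other. Genes are not replicates of a class, so this difference is a description and was given no test.

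By rank, HOXA11 and MSX1 stood above WNT7A, IHH and WNT5A in both pigs. The place of the 2 factors relative to the middle of the expressed genes depended on which genes were ranked. HOXA10, which was not above 0 in both libraries, is outside this ranking, and its listed level was below WNT7A, IHH and WNT5A in both pigs. Ranks are percentiles among the 6985 named genes above 0 in both libraries, whose median was 33.3 RPKM in replicate 1 and 36.7 in replicate 2. MSX1 was at percentile 59.6 in replicate 1 and 63.2 in replicate 2, and HOXA11 at 60.2 and 56.0. WNT7A was at 50.2 and 48.1, next to the median. IHH was at 26.1 and 38.8, and WNT5A at 28.2 and 30.7. Among the 5643 of these genes with 1 listed transcript, MSX1 was at percentiles 51.9 and 56.2, and HOXA11 at 52.7 and 47.95, below the middle in replicate 2. WNT7A was then at 41.8 and 39.8, and IHH at 21.4 and 31.7.

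The rank rose for 4 of these 5 genes when reads were not divided by length. HOXA11 had a smallest length of 1124 nt, with 656 reads in replicate 1 and 483 in replicate 2. By reads it stood at percentiles 83.1 and 78.9. MSX1 had 455 and 593 reads at 824 nt and stood at 77.4 and 82.2. WNT7A had 197 and 171 reads at 782 nt and stood at 64.0 and 61.5. IHH had 23 and 72 reads at 740 nt and stood at 37.8 and 50.02. WNT5A went the other way, with at least 3 and 4 reads at 81 nt. Its percentiles of 12.1 and 14.9 rest on these smallest reads and would be higher with more reads. The lengths of the members with 1 listed transcript were long for this table. Of 4390 transcripts that are the only one listed for their gene and had at least 20 reads in all, 12.03% had a smallest length of 740 nt or more, and the median was 227 nt.

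**Figure D3:**
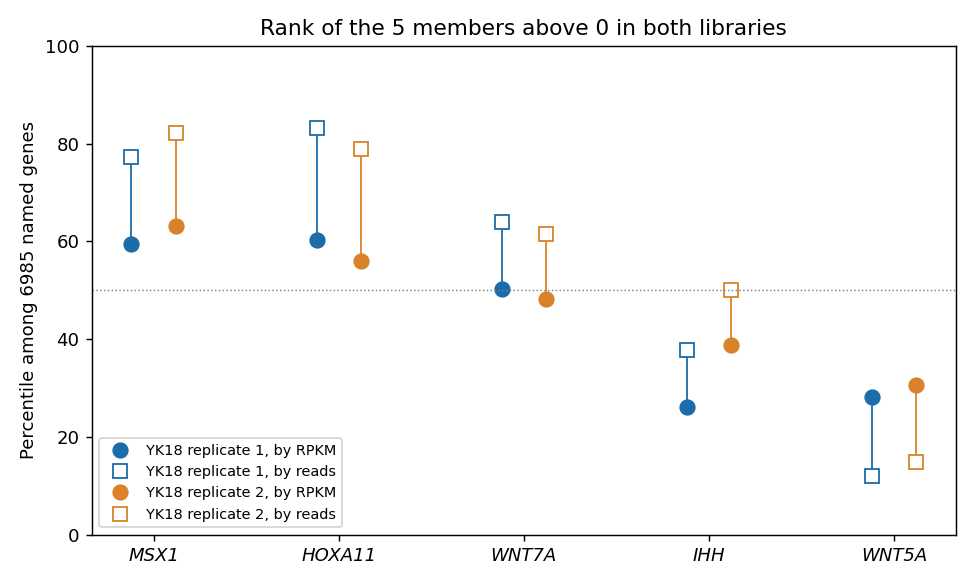
Percentile (vertical axis, 0 to 100) of the 5 members above 0 in both libraries among 6985 named genes, by RPKM (filled circles) and by reads not divided by length (open squares), for each library. MSX1, HOXA11, WNT7A and IHH ranked higher by reads, and WNT5A ranked lower at the smallest reads that its values allow.

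Between the 2 pigs, IHH differed most. In reads per 1000000 reads, IHH was in replicate 1 at 3.08, with a 95% exact binomial confidence interval of 1.95 to 4.62, and in replicate 2 at 10.3 (8.02 to 12.9), a ratio of 3.33 (2.06 to 5.58). Such intervals cover counting error only and not the spread among pigs, since each pig gave 1 library. PCR reads are not independent molecules, so the intervals may be too narrow even for counting error. On the scale log2(RPKM + 1) the ratio of replicate 2 to replicate 1 was 1.52. It was the only 1 of the 5 members with a mean of at least 1 RPKM to differ 2-fold. Among 6476 named genes with such a mean, 10.7% differed 2-fold, 7.49% being higher in replicate 2 and 3.17% higher in replicate 1. The log2 ratio was 0.47 for MSX1, 0.43 for WNT5A, -0.11 for WNT7A and -0.35 for HOXA11, beside a median of 0.07 over all these genes.

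Some of the smaller differences also exceeded counting error, with reads taken as independent. An exact two-sided binomial test of the reads, adjusted over the 8123 named genes with a read, compares these 2 libraries and not conditions. It gave an adjusted p of 1.33e-06 for IHH, 2.62e-06 for MSX1 and 0.000456 for HOXA11, and 18.4% of the genes tested had an adjusted p under 0.05. The read ratio of replicate 2 to replicate 1 was 1.39 (95% interval 1.22 to 1.57) for MSX1 and 0.783 (0.695 to 0.882) for HOXA11. For WNT7A it was 0.923 (0.747 to 1.14), with an adjusted p of 0.798 in the same exact binomial test. For WNT5A, taking the smallest reads of 3 and 4 as the counts, the interval ran from 0.240 to 9.68, and no difference was detected. With more reads by a whole factor it would be narrower. HOXA11 and MSX1 thus moved in opposite directions between the pigs.

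**Figure D4:**
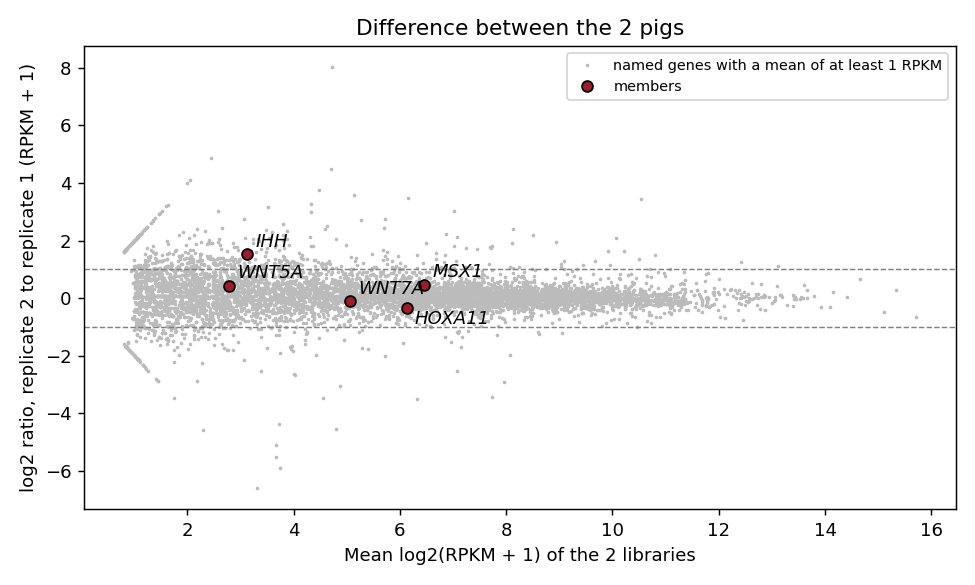
The log2 ratio of replicate 2 to replicate 1 (vertical axis, on RPKM + 1) against the mean log2(RPKM + 1) of both libraries, for named genes averaging 1 RPKM or more (grey) and the 5 members among them (red). Dashed lines mark a 2-fold difference, which only IHH among the members passed, at 1.52.

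Markers of the cells that could carry these genes did not all move one way. Of 8 epithelial markers, 6 were listed and KRT8 was listed at 0. Those averaging 1 RPKM or more, 5 in all, had a median log2 ratio of 0.01, from -0.61 for KRT18 to 0.96 for KRT19. Their summed levels were 11970 and 10845 RPKM. KRT19 had at least 6 and 11 reads at a smallest length of 3 nt, so its reads are not settled. EPCAM, a surface protein of epithelial cells, was at 5106 and 5128 RPKM. The ratio of IHH, 1.52, lay above those of all 5. Of 8 stromal markers, 6 were listed, and the 5 with a mean of at least 1 RPKM ran from -0.79 for LUM to 1.01 for THY1. Their median log2 ratio was 0.34, with 3 higher in replicate 2 and 2 higher in replicate 1. Summed levels over the list were 69904 and 45289 RPKM, of which COL3A1 alone gave 67098 and 42857 RPKM. IFNG, the trophectoderm marker with the highest mean, had a log2 ratio of -2.92, opposite to that of IHH, and IL1B had one of 1.33. The part of cell composition, conceptus tissue and skeletal muscle RNA in the difference of IHH was not tested.

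Among the WNT ligands WNT7A ranked second in both pigs. Of 19 WNT ligands 12 were listed, and WNT7A held 26.9% of their summed RPKM in replicate 1 and 24.8% in replicate 2. WNT2, which was above it, was at 56.8 and 37.5 RPKM. WNT9A was at 16.8 and 25.5 RPKM, and WNT16 at 7.58 and 12.4 RPKM. By RPKM, WNT5A had rank 5 in replicate 1 and rank 6 in replicate 2, from at least 3 and 4 reads. By these smallest reads it was below WNT2B, which had 15 and 49, in both pigs. WNT2B was, like IHH, at least 2-fold higher in replicate 2, at 2.26 and 7.86 RPKM. It was 1 of the 6 other WNT ligands averaging 1 RPKM or more, and no other of these passed 2-fold.

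By RPKM, the WNT receptors FZD3 and FZD5 and the inhibitors DKK1 and FRZB stood above WNT2, the highest ligand, in both pigs. Frizzled proteins are the receptors of WNT ligands, and 5 of the 15 receptor genes were listed, all of them frizzled genes above 0 in both libraries. FZD3 was at 170.4 and 153.6 RPKM, FZD5 at 87.6 and 80.5 RPKM, and FZD4 at 37.6 and 39.4 RPKM. Their reads were 518 and 439, 1393 and 1203, and 977 and 964, beside 525 and 326 for WNT2. By reads FZD3 was thus not above WNT2 in replicate 1. None of the 5 frizzled genes differed 2-fold between the pigs. Of 15 inhibitors, 8 were listed, of which 6 averaged 1 RPKM or more. DKK1, a secreted protein that blocks the WNT co-receptors, was at 2184 and 3095 RPKM, from 1631 and 2174 reads at a smallest length of 100 nt. Its level was at percentile 98.1 by the mean RPKM and 94.8 by reads. FRZB, a secreted protein that binds WNT ligands, was at 467.3 and 457.0 RPKM. DKK2 was at 13.7 and 12.4 RPKM. SFRP1, another secreted WNT-binding protein, was at 6.34 and 15.6 RPKM and was the only 1 of the 6 to differ 2-fold on RPKM + 1.

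Genes of WNT secretion and of the signal inside the cell were also listed in part. LGR6, a receptor for R-spondins, was at 3.11 and 2.76 RPKM, WLS, which carries WNT proteins to the cell surface, at 1.49 and 2.64 RPKM, and PORCN, which attaches a lipid to them, at 1.05 RPKM in replicate 1 and listed at 0 in replicate 2. In the cell, GSK3B, the kinase that marks beta-catenin for breakdown, was at 997.0 and 932.3 RPKM. DVL1, which passes on the signal of the receptor, was at 435.6 and 487.1 RPKM, and APC, a scaffold of the breakdown complex, at 378.5 and 332.0 RPKM. By reads APC was above GSK3B in both pigs, with 1252 and 1033 against 938 and 825. Of the 9 listed genes of this group 5 were listed at 0 in both libraries, CTNNB1 (beta-catenin), TCF7L2, LEF1, BTRC and DVL2. Of these, only DVL2 has 1 listed transcript, so the zeros again fell mostly on genes with several.

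**Figure D5:**
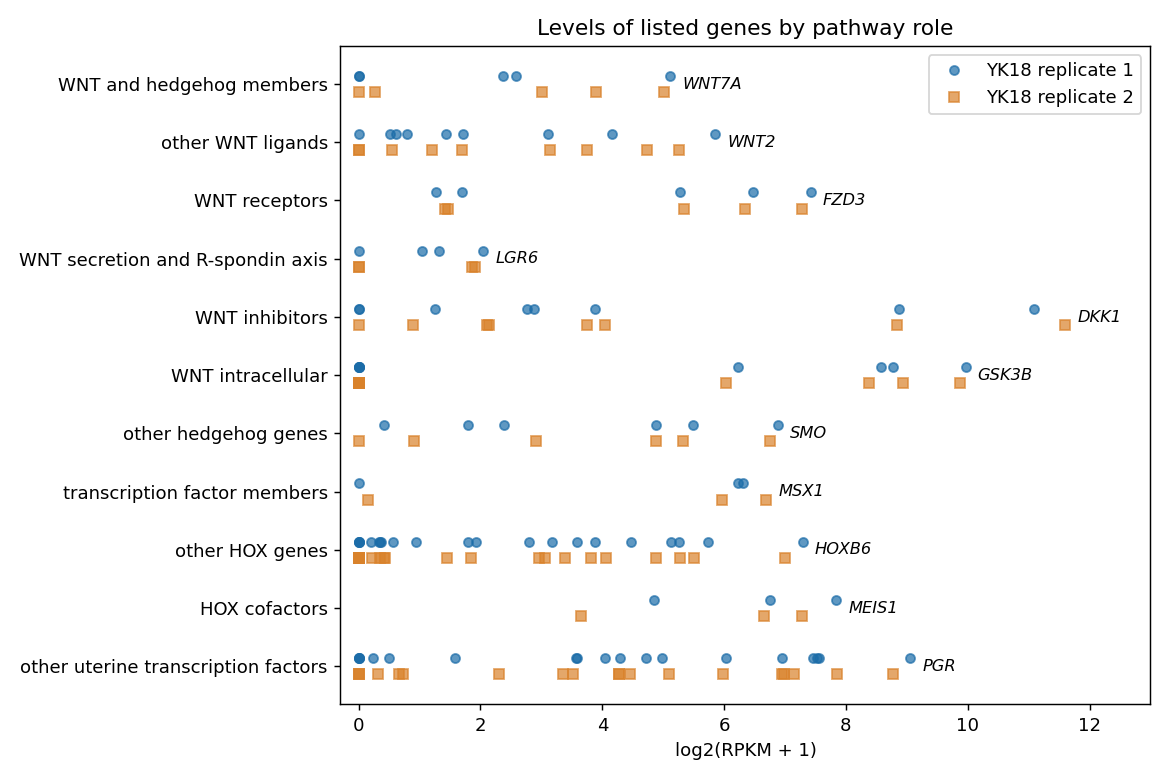
Levels of all listed genes of each pathway group, as log2(RPKM + 1) on the horizontal axis, with circles for replicate 1 and squares for replicate 2 and the gene with the highest mean named. The WNT inhibitor DKK1 stood at 2184 and 3095 RPKM, while WNT2 and WNT7A, the highest ligands, stayed at or below 56.8 RPKM.

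In the hedgehog pathway, the level of IHH was set beside its signal chain. SMO, the membrane protein that PTCH1 holds inactive, was at 116.5 and 107.0 RPKM. On the scale of RPKM + 1, none of the 5 other hedgehog genes with a mean of at least 1 RPKM differed 2-fold. GLI2, a transcription factor of the pathway, was at 44.1 and 28.4 RPKM. HHIP, a membrane protein that binds hedgehog ligands, was at 28.6 and 39.0 RPKM. DHH was at 4.25 and 6.55 RPKM, and SHH was at 0.33 RPKM in replicate 1 and listed at 0 in replicate 2. IHH was thus level with DHH in replicate 1 and above it in replicate 2. GLI1, a target of the pathway, was at 2.46 and 0.87 RPKM from at least 3 and 1 reads. BMP2, a growth factor placed after IHH in the uterus of the mouse, was at 0.92 and 5.15 RPKM, from 4 and 21 reads. Its log2 ratio was 1.68, with an adjusted p of 0.00342 in the exact binomial test. NR2F2, a stromal factor of the same axis, was at 10.9 and 9.23 RPKM. BMP4 and BMP7, from the same list as BMP2, had log2 ratios of 0.34 and -0.15. GLI1 had one of -0.89, and PTCH1 was listed at 0 in both pigs.

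HOXA11 ranked second among the HOX genes in both pigs. Of 39 HOX genes 23 were listed, and HOXA11 held 18.4% of their summed RPKM in replicate 1 and 17.1% in replicate 2. HOXB6 was above it, at 155.6 and 127.5 RPKM, and HOXB7 below it, at 52.1 and 44.6 RPKM. HOXA5 was at 37.4 and 37.8 RPKM. In the order of the Sscrofa11.1 annotation, HOXA11 lies between HOXA13 and HOXA10, with HOXA9 next. HOXA13 was at 0.47 RPKM in replicate 1 and listed at 0 in replicate 2, and HOXA9 was at 10.9 and 9.43 RPKM. In these libraries HOXA11 was therefore the highest of the listed HOXA genes, with the value of HOXA10 limited as described above. HOXC6 was the only 1 of 12 other HOX genes with a mean of at least 1 RPKM to differ 2-fold, at 2.48 and 0.35 RPKM.

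Partners of HOX proteins on DNA were also measured. MEIS1 was at 228.0 and 154.7 RPKM, above HOXA11 by RPKM in both pigs, and PBX2 was at 106.7 and 99.3 RPKM. By reads MEIS1 was below HOXA11 in both pigs. It had 315 and 201 reads at a smallest length of 185 nt, and HOXA11 had 656 and 483 at 1124 nt. In the exact binomial test the adjusted p was 0.000177 for MEIS1 and 0.798 for PBX2. MEIS1 was thus lower in replicate 2, as was HOXA11. Other transcription factors of the uterus gave the scale for MSX1 and HOXA11. Of 28 such factors, the 5 members among them included, 22 were listed. By RPKM, MSX1 had rank 7 in replicate 1 and rank 6 in replicate 2, and HOXA11 had ranks 6 and 8. The progesterone receptor PGR was at 530.9 and 434.2 RPKM, SOX17, a factor of glandular epithelium, at 182.7 and 231.0 RPKM, and the estrogen receptor ESR1 at 188.2 and 140.1 RPKM. The order differed by reads not divided by length. Over both libraries the percentiles were then 87.0 for SOX17, 81.1 for HOXA11, 79.8 for MSX1, 78.7 for PGR and 65.5 for ESR1. None of the 13 other factors with a mean of at least 1 RPKM differed 2-fold. FGF ligands lie downstream of HAND2 in the uterus of the mouse, and of these FGF9 was at 68.2 and 80.8 RPKM, FGF1 at 7.31 and 6.05 RPKM, and FGF18 at 1.48 and 0.78 RPKM. BMP7 was at 2.81 and 2.44 RPKM and BMP4 at 1.74 and 2.47 RPKM.

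The named genes nearest in level to each member were also found, by distance on the log2(RPKM + 1) scale over the 2 libraries. They were PPP1R12B for HOXA11, PXDC1 for MSX1, IKBIP for WNT7A and FAM124A for IHH. For WNT5A it was PHKA2, whose value equalled that of WNT5A in each library. With 2 libraries this is a likeness of level only. IHH had 1 gene within a distance of 0.1, and the other 4 members had 4 to 11.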

How the data were processed

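Endometrium of 2 pregnant Yorkshire pigs was sequenced at day 18, with 1 library per animal. RPKM values were computed by the authors from HTSeq (0.6.1) counts and deposited per transcript. Aligner and genome build are not given in the sources used here, so no coordinates are given. The table holds 43699 transcripts. Symbols matched 16072 of 38222 mRNA accessions (42.0%).

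Library totals were taken from the steps of low RPKM values, and reads from the smallest length up to 20000 nt that gave whole reads (tolerance 2e-06 reads plus 2e-09 of the reads) for 100% of 25584 transcripts above 0. Recovery and the exact binomial test were run on simulated reads with counting error only. A recovered length passed if it divided the true length. The simulation therefore does not check the reads of a single transcript, or the test under variation between animals. No count model was fitted. Python 3.11.15, pandas 2.3.3, numpy 2.4.6, scipy 1.17.1 and matplotlib 3.10.9 were used. A 2-fold difference is an absolute log2 ratio of at least 1 on RPKM + 1.

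Genes named are the members, the 3 highest of each pathway list, genes of these lists that differed 2-fold and averaged 1 RPKM or more, and the gene nearest in level to each member, except 1 gene that is not reported here. Outside this rule HOXA9, HOXA13, GLI1, DHH, SHH, NR2F2, TNNT3, the markers, and the WNT genes listed at 0 were added with their values already seen. Members and lists were chosen with earlier results of these data known. Lists of endothelial, leukocyte, smooth muscle and trophectoderm markers had median log2 ratios of -0.24, 0.68, -0.14 and -0.30, the last over 3 genes from -2.92 (IFNG) to 1.33 (IL1B). Alternatives were other pseudocounts, filters and scalings, the highest transcript of a gene, reads in place of RPKM, and each replicate left out.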

Additional observations from a re-analysis of the deposited data

How the results depend on the processing

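No paired analysis was possible because both libraries belong to 1 condition. The number of members above 0 in both libraries, 5, was 3 at 10 RPKM or more, and ran from 5 to 7 with each replicate left out. The log2 difference between the factors and the WNT and hedgehog genes, 3.34, was 5.62 in reads per 1000000 reads (WNT5A, the middle gene of its group, has at least 3 and 4 reads), and 2.20 over members with 1 listed transcript, a setting added after seeing the data. It ran from 2.95 to 3.86 with each replicate left out and kept its direction under every alternative run. The count of members that differed 2-fold was 1 under all 6 alternatives. The SD of 2 animals is itself a rough estimate, and reads are the smallest that the values allow, so counting intervals may be too wide. PCR reads that are not independent would act the other way and make the intervals too narrow. The percentile of all 5 members moved when all named genes, all transcripts or reads were ranked. Among genes with 1 listed transcript 4 of the 5 fell, MSX1 from 61.5 to 54.1, HOXA11 from 58.2 to 50.3, WNT7A from 48.9 to 40.5 and WNT5A from 29.6 to 24.05, and IHH went from 34.2 to 27.7, within its spread. This ranking and that by reads were also added after seeing the data.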
